A study of Homo sapiens with 10 samples.

Results

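Mitochondrial ribosomal proteins were examined in RNA-Seq data of leukemia lines with and without acquired insensitivity to Venetoclax (VEN). The genes were chosen by name: every protein-coding gene whose GENCODE symbol is MRPL or MRPS followed by a number and at most 1 letter. This gives 77 of the 63677 gene identifiers counted, 48 MRPL genes named for the large and 29 MRPS genes named for the small subunit. Subunits below follow these symbols unless stated. MRPS30 and MRPS18A nevertheless encode proteins of the large subunit, and MRPS28 and MRPS36 were put in no class. The cells are RS4;11, an established line of acute lymphoblastic leukemia of B-cell precursors that responds strongly to VEN, an inhibitor of the anti-apoptotic protein BCL-2. VENins lines (n = 5) had been exposed to rising concentrations of VEN, and VENsens lines (n = 5) to the solvent DMSO alongside them. The study kept VENins lines under VEN throughout culture and grew VENsens lines without it. Insensitivity and ongoing exposure to VEN therefore cannot be told apart here. All 10 lines descend from the same cell line, 1 library was made per line, and VEN was washed off before analysis. The p-values below rest on the spread between these lines of 1 cell line, in the main fit on what is left of it after line number. Gene counts per library were between 20631907 and 28323643 in VENsens and between 21145316 and 25394653 in VENins lines.

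Mitochondria carry their own ribosome, which translates the few membrane proteins encoded by mitochondrial DNA, all of them core subunits of the respiratory chain and of ATP synthase. Its RNA is made inside the organelle, while every one of its proteins is encoded in the nucleus, translated in the cytosol and imported. Some of these proteins descend from the bacterial ribosome and others were gained in mitochondria. A part of the gained proteins takes the place of lost RNA segments or anchors the particle to the inner membrane. The RNA partners could not be set beside the proteins, since both mitochondrial ribosomal RNAs and the other genes of the mitochondrial chromosome, 37 in all, had a count of 0 in every library.

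Of the 77 genes, 73 passed the filter on low counts, 47 MRPL and 26 MRPS, among 16756 tested genes. Their transcripts lay slightly higher in VENins lines, with 44 of 47 MRPL and 24 of 26 MRPS genes above 0 on the log2 scale. The median log2 fold change was 0.14 for MRPL and 0.076 for MRPS genes, against 0.0035 for all tested genes. No member passed an adjusted p of 0.05 in edgeR's quasi-likelihood test, 0 of 73, where 33 of all tested genes or 0.197% did. When the lines numbered 1, 2, 3, 4 or 5 were left out in turn, 57, 6, 17, 331 and 9 of all genes passed. At an unadjusted p under 0.05, 25 members were higher in VENins lines, 18 MRPL and 7 MRPS, beside 7.79% of all tested genes, and 0 were lower, beside 8.38%. RNA was taken from whole cultures, so fewer cells with a transcript and less RNA per cell cannot be told apart.

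Other fits of the same counts called few members, each of them higher in VENins lines. MRPL39 was called by edgeR without the line number, where 0.292% of all tested genes were called higher, and by DESeq2 with the line number, where 0.4% were. In DESeq2 without the line number 9 members were called, MRPL13, MRPL18, MRPL24, MRPL34, MRPL36, MRPL39, MRPL51, MRPS14 and MRPS36, beside 2.14% of all tested genes. In 8 members the lowest VENins line exceeded the highest VENsens line, beside 2.36% of all tested genes, namely MRPL39, MRPL18, MRPL34, MRPL13, MRPL40, MRPL17, MRPL28 and MRPS28. The opposite order held for 0 members, beside 2.3%.

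**Figure D1:**
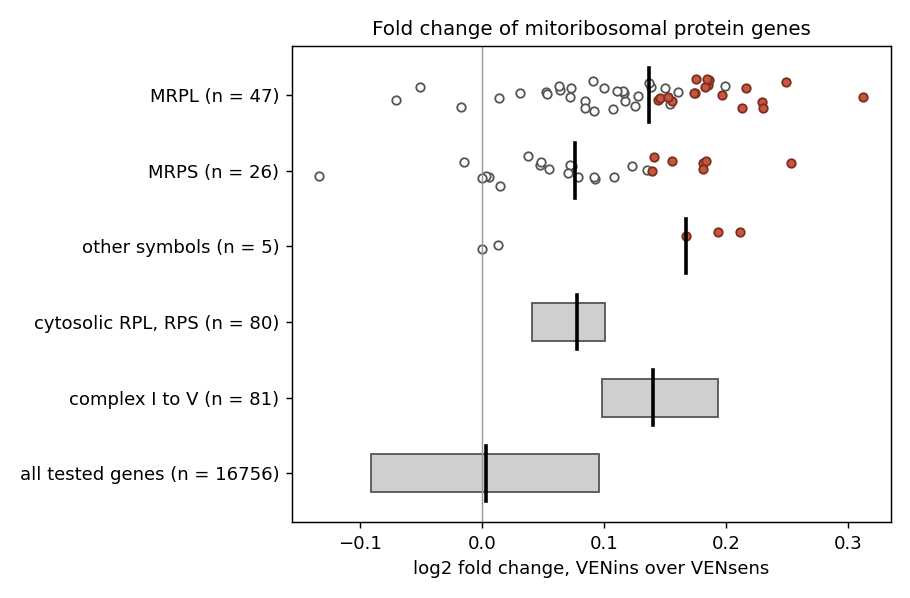
Log2 fold change of VENins over VENsens lines on the x axis, for MRPL genes, MRPS genes and 5 mitoribosomal proteins with other symbols (points, filled where the unadjusted p is under 0.05), and as interquartile boxes for cytosolic ribosomal proteins, nuclear subunits of complexes I to V and all tested genes; black bars are medians. Most points lie right of 0, with medians of 0.14 for MRPL and 0.076 for MRPS genes, while the box of all tested genes is centred near 0.

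A single control library stood apart. VENsens line 2 gave the lowest log2 CPM (scaled gene counts of a library relative to its depth) of the 10 libraries for 52 of 73 members, or 71.2%, whereas it was lowest for 17.9% of all tested genes. The level of the module in a library was taken as the mean over members of log2 CPM minus the gene's mean over the 10 libraries. For MRPL genes this level was -0.046, -0.20, 0.015, -0.056 and -0.031 in VENsens lines 1 to 5 and -0.0045, 0.082, 0.059, 0.083 and 0.10 in VENins lines 1 to 5. For MRPS genes it was -0.028, -0.13, 0.024, -0.038 and -0.030 in VENsens lines 1 to 5 and -0.013, 0.070, 0.062, 0.056 and 0.031 in VENins lines 1 to 5. In both subunits line 2 of VENsens was far below the other control lines, VENsens line 3 reached above VENins line 1, and the groups overlapped. The lines numbered 2 carried much of the count of small p-values. Without them 8 members had an unadjusted p under 0.05, all higher in VENins lines, beside 3.98% of all tested genes higher and 4.44% lower, and the medians were 0.098 for MRPL and 0.049 for MRPS genes. Without the lines numbered 4 the count was 16, beside 6.99% higher. With VENsens line 2 alone removed and the line number left out of the model, a fit added after the data were seen, 19 members were higher and 1 lower at that threshold, beside 7.64% and 7.03% of all tested genes, and the medians were 0.11 and 0.056. The remaining direction was mostly upward, with 64 of 73 members above 0. The distance between the subunits was smallest without VENins line 5, where in a fit of the same kind the medians were 0.11 for MRPL and 0.096 for MRPS genes.

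Expressed as a share of all gene counts, the 77 genes made up 0.399, 0.364, 0.413, 0.398 and 0.401% in VENsens lines 1 to 5 and 0.407, 0.425, 0.420, 0.426 and 0.421% in VENins lines 1 to 5. The highest control line, VENsens line 3, stood above VENins line 1 and below the other VENins lines. Summed CPM was 2286 ± 117 in VENsens and 2470 ± 62.8 in VENins lines for MRPL genes (SD, n = 5). For MRPS genes the sums were 1661 ± 67.7 and 1743 ± 36.3 CPM.

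Transcript length moved with the same libraries. The members have short transcripts, with a median longest transcript of 1748 bases against 2912.5 for all tested genes, and 49 of 73 fall among the 20% of tested protein-coding genes with the shortest transcripts. The median log2 fold change of that 20% was 0.082, and it was -0.078 for the 20% with the longest transcripts. Among genes other than the members, the mean level of the shortest 20% was 0.0038, -0.10, 0.0074, -0.036 and -0.035 in VENsens lines 1 to 5 and -0.014, 0.044, 0.013, 0.012 and 0.10 in VENins lines 1 to 5. VENsens line 2 was thus lowest and VENins line 5 highest for short transcripts in general. Members in that length class had a median of 0.13, and the 10 members of the next class had 0.12, where all genes of the class had 0.023. In the following classes, from shorter to longer, 8 members had a median of 0.13, 5 had 0.031 and 1 had 0.052, where all genes of these classes had -0.0029, -0.037 and -0.078. After per-library trends on transcript length and GC content were taken out, the medians were 0.11 for MRPL, 0.059 for MRPS and 0.013 for all tested genes. In that fit 30 members were higher at an unadjusted p under 0.05, beside 10.7% of all tested genes, and MRPL39 was among 142 called genes. RNA integrity was not analysed here, and its part in the difference was not tested.

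**Figure D2:**
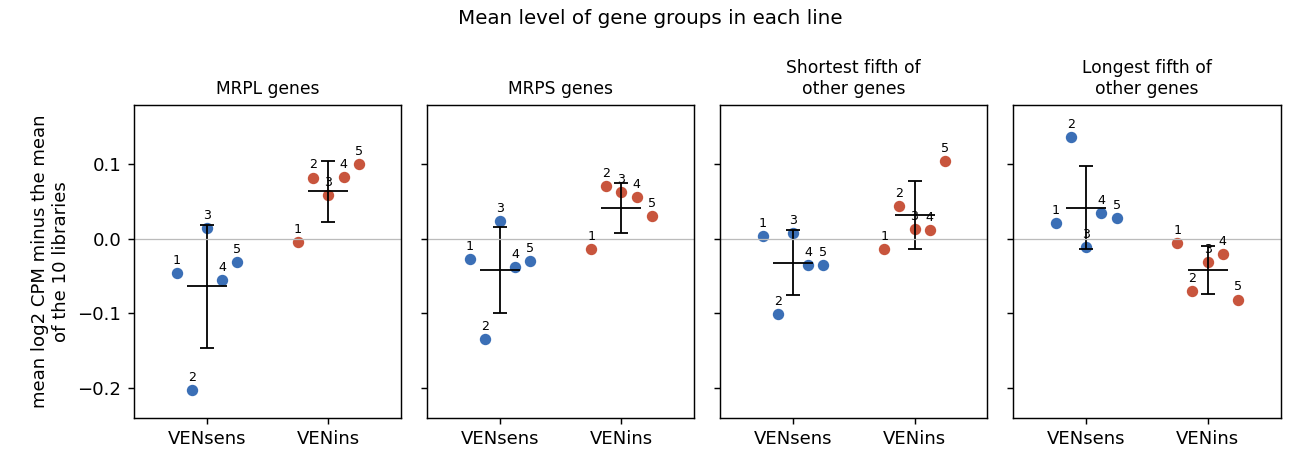
Mean log2 CPM of 4 gene groups in each line, relative to the mean of the 10 libraries (y axis), for MRPL genes, MRPS genes and the 20% of other protein-coding genes with the shortest and the longest transcripts; points are lines with their number, bars are group means ± SD (n = 5). VENsens line 2 is the lowest point for MRPL (-0.20), MRPS (-0.13) and short transcripts (-0.10), and the highest for long ones (0.14).

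Markers of the B lineage were abundant in all libraries. Summed over 10 B-lineage markers the level was 3737, 3703, 3634, 3732 and 3709 CPM in VENsens lines 1 to 5 and 3593, 3653, 3623, 3558 and 4016 CPM in VENins lines 1 to 5. PAX5, a transcription factor of B-cell identity, was the marker called, with means of 783 (VENsens) and 631 CPM (VENins) and an adjusted p of 0.0272 in edgeR. Single B-lineage markers varied between lines. DNTT, which adds nucleotides during antigen receptor assembly, lay between 1.08 and 27.3 CPM, with 694 counts in VENins line 4 against 23, 35, 83 and 45 in VENins lines 1, 2, 3 and 5, and RAG1, a recombinase of the same process, lay between 130 and 263 CPM. Means of CD79B and IGLL1 were higher in VENins lines, with adjusted p of 0.200 and 0.183 in edgeR. Of 6 T-lineage markers 5 stayed under 1 CPM in every library, with CD8A at 0 throughout and CD3E the most abundant at up to 1.04 CPM. The erythroid markers HBB and ALAS2 stayed under 1 CPM as well, and HBA1 was at 0. Among 6 myeloid markers CSF1R was the most abundant with means of 8.77 (VENsens) and 10.2 CPM (VENins), and the summed level of the myeloid markers lay between 9.45 and 14.5 CPM.

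The smallest p of all members belonged to MRPL39, a protein of the large subunit without a bacterial counterpart. The gene lies at chr21:25585656-25607517 (GRCh38). It had 27.2, 26.8, 30.1, 28.1 and 29.3 CPM in VENsens lines 1 to 5 and 33.5, 38.2, 37.6, 33.5 and 33.1 CPM in VENins lines 1 to 5. The 5 VENins lines lay above the 5 VENsens lines with a gap between them. Means were 28.3 ± 1.39 (VENsens) and 35.2 ± 2.49 CPM (VENins; SD, n = 5), with a log2 fold change of 0.31 ± 0.067 (SE) and an adjusted p of 0.0653 in edgeR. This was the lowest adjusted p of any member. Its log2 fold change was between 0.26 and 0.35 in all other fits, and the adjusted p between 0.000519 and 0.47.

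MRPL18 is a homologue of the bacterial protein that binds 5S ribosomal RNA and lies at chr6:159789812-159798436. Its values were 65.9, 59.6, 76.5, 70.1 and 71.7 CPM in VENsens lines 1 to 5 and 76.6, 85.7, 77.7, 81.7 and 80.6 CPM in VENins lines 1 to 5. The groups only just failed to overlap, since VENsens line 3 lay directly below VENins line 1, and VENsens line 2 was lowest. The difference amounted to a log2 fold change of 0.23 ± 0.067 (SE) and an adjusted p of 0.130 in edgeR. MRPL51, a protein of the large subunit specific to mitochondria, had 78.0, 72.8, 90.5, 82.1 and 85.7 CPM in VENsens lines 1 to 5 and 93.2, 104, 94.3, 89.5 and 94.4 CPM in VENins lines 1 to 5. Here VENsens line 3 exceeded VENins line 4, so the groups overlapped at 1 line of each. Its test gave a log2 fold change of 0.22 ± 0.066 (SE) and an adjusted p of 0.140 in edgeR.

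MRPL34 and MRPL24 are also homologues of bacterial proteins of the large subunit. MRPL34 had 54.7, 47.6, 55.0, 50.5 and 55.1 CPM in VENsens lines 1 to 5 and 58.2, 60.0, 57.8, 58.1 and 67.4 CPM in VENins lines 1 to 5. Again no VENsens line reached a VENins line, and VENins line 5 was well above the other VENins lines. Means were 52.6 ± 3.39 (VENsens) and 60.3 ± 4.07 CPM (VENins; SD, n = 5), with a log2 fold change of 0.20 ± 0.060 (SE) and an adjusted p of 0.141 in edgeR. MRPL24 had 34.1, 27.5, 35.1, 32.6 and 32.6 CPM in VENsens lines 1 to 5 and 34.3, 38.6, 38.7, 40.3 and 37.8 CPM in VENins lines 1 to 5. The lowest value was that of VENsens line 2, and VENsens line 3 lay above VENins line 1. edgeR gave a log2 fold change of 0.23 ± 0.072 (SE) and an adjusted p of 0.150 for it.

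**Figure D3:**
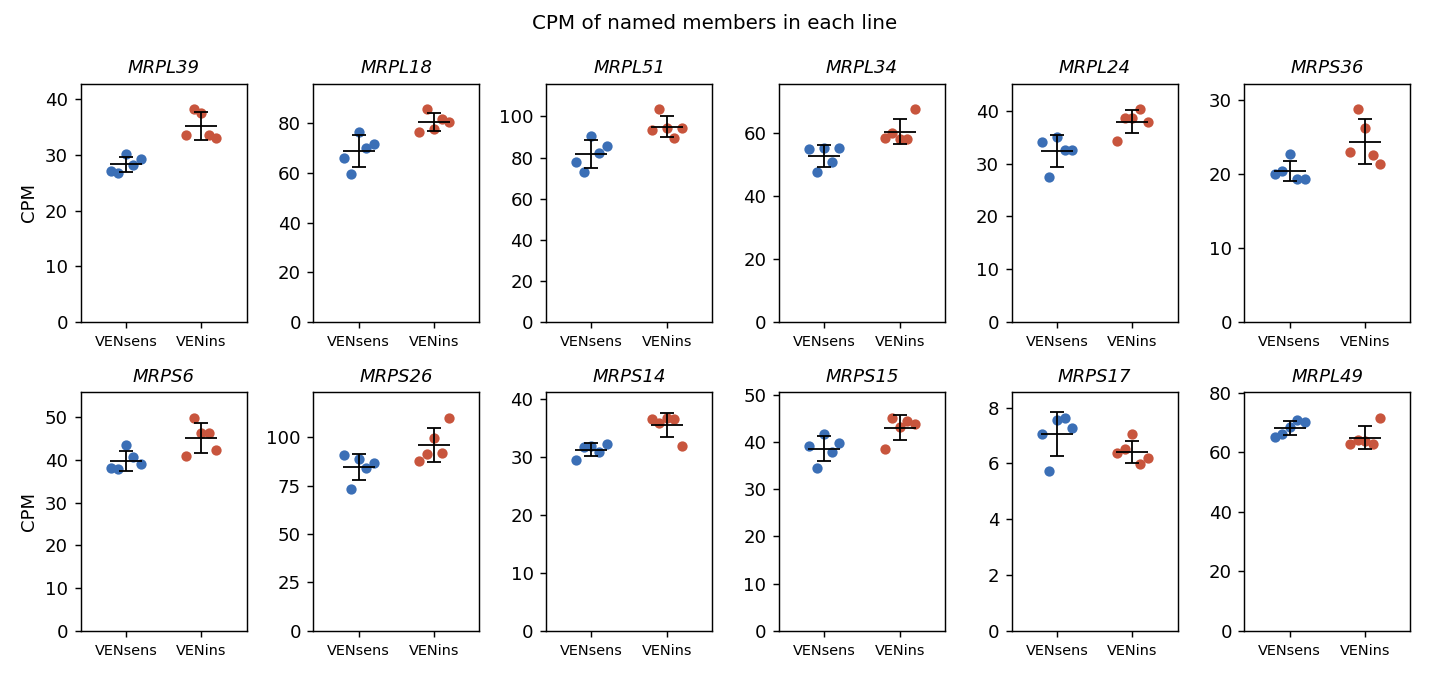
CPM of 12 members in each line (y axis from 0), VENsens blue and VENins red; points are lines in order of number from left to right, bars are means ± SD (n = 5). The first 10 genes have the smallest p of their subunit and differ by small steps against their level, MRPL39 most clearly with 28.3 against 35.2 CPM, while MRPS17 and MRPL49 lie slightly lower in VENins lines.

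Among MRPS genes MRPS36 had the smallest p, ahead of all MRPL genes but MRPL39. Its protein is a part of the 2-oxoglutarate dehydrogenase complex of the citric acid cycle, and the gene was put in no class of ribosomal proteins. Its values were 20.1, 20.5, 22.7, 19.4 and 19.4 CPM in VENsens lines 1 to 5 and 23.0, 28.8, 26.2, 22.6 and 21.4 CPM in VENins lines 1 to 5. VENsens line 3 lay above VENins lines 4 and 5, and VENins line 2 was highest. The mean levels were 20.4 ± 1.35 (VENsens) and 24.4 ± 3.03 CPM (VENins; SD, n = 5), with a log2 fold change of 0.25 ± 0.072 (SE) and an adjusted p of 0.123 in edgeR. Pseudogenes named after MRPS36 held 72.1% as many counts as the gene itself. With these counts added, the log2 fold change was 0.24 and the adjusted p 0.111, and in all other fits of MRPS36 the adjusted p lay between 0.0451 and 0.561.

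MRPS6 and MRPS14 are homologues of bacterial small-subunit proteins. MRPS6 had 38.1, 37.8, 43.5, 40.7 and 39.0 CPM in VENsens lines 1 to 5 and 41.0, 49.8, 46.4, 46.4 and 42.3 CPM in VENins lines 1 to 5. VENsens line 3 exceeded VENins lines 1 and 5, and VENins line 2 was highest. The estimate was a log2 fold change of 0.18 ± 0.063 (SE) and an adjusted p of 0.183 in edgeR. MRPS14 had 29.4, 31.7, 31.9, 30.9 and 32.2 CPM in VENsens lines 1 to 5 and 36.5, 35.8, 36.7, 36.5 and 31.8 CPM in VENins lines 1 to 5. VENins lines 1 to 4 were close to each other and above all control lines, whereas VENins line 5 lay inside the control range. This gave a log2 fold change of 0.18 ± 0.066 (SE) and an adjusted p of 0.191 in edgeR.

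MRPS26, which has no bacterial counterpart, was among the most abundant members. It had 90.6, 73.3, 88.9, 84.3 and 86.4 CPM in VENsens lines 1 to 5 and 87.6, 91.3, 99.7, 91.7 and 110 CPM in VENins lines 1 to 5. The extremes were VENsens line 2 and VENins line 5, and VENins line 1 lay below VENsens lines 1 and 3. The result was a log2 fold change of 0.18 ± 0.063 (SE) and an adjusted p of 0.184 in edgeR. MRPS15, the homologue of a bacterial protein that binds ribosomal RNA early in assembly, had 39.2, 34.5, 41.7, 37.9 and 39.8 CPM in VENsens lines 1 to 5 and 38.5, 45.1, 43.1, 44.6 and 43.9 CPM in VENins lines 1 to 5. VENins line 1 lay within the control range and the other VENins lines above it. The corresponding estimate was a log2 fold change of 0.16 ± 0.068 (SE) and an adjusted p of 0.276 in edgeR.

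Only 5 of 73 members lay below 0, MRPL10, MRPL37, MRPL49, MRPS17 and MRPS30, and none of them had an unadjusted p under 0.05. MRPS17, a homologue of a bacterial small-subunit protein, was the single member under -0.1. It had 7.07, 5.72, 7.57, 7.63 and 7.26 CPM in VENsens lines 1 to 5 and 6.39, 6.50, 7.04, 5.97 and 6.19 CPM in VENins lines 1 to 5. The lowest of all libraries was VENsens line 2, and the other control lines lay above every VENins line. The test gave a log2 fold change of -0.13 ± 0.10 (SE) and an adjusted p of 0.558 in edgeR, from 1623 counts over all libraries. MRPL49 had 65.2, 66.0, 68.5, 70.8 and 70.2 CPM in VENsens lines 1 to 5 and 62.8, 64.0, 63.7, 62.7 and 71.5 CPM in VENins lines 1 to 5. VENins line 5 was the highest of all libraries, and the other VENins lines lay below every VENsens line. Its estimate was a log2 fold change of -0.071 ± 0.055 (SE) and an adjusted p of 0.561 in edgeR.

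The stalk of the large subunit recruits translation factors to the ribosome. Of 5 genes listed for it, MRPL10, MRPL11, MRPL12, MRPL53 and MRPL54, 4 were above 0 and the median log2 fold change was 0.073. MRPL12, the stalk protein that also binds mitochondrial RNA polymerase, varied most among members of the large subunit in both groups. Its values were 20.5, 13.5, 19.3, 18.4 and 19.3 CPM in VENsens lines 1 to 5 and 17.1, 18, 16.9, 19.0 and 25 CPM in VENins lines 1 to 5. VENsens line 2 was far below and VENins line 5 far above the remaining lines, which overlapped. The test gave a log2 fold change of 0.073 ± 0.099 (SE) and an adjusted p of 0.771 in edgeR, and the sign turned without lines 2 or without lines 5, at -0.0057 and -0.0068. Of its exon bases 68.2% are shared with an overlapping gene, the highest share among members. MRPL11 had 53.5 ± 3.63 (VENsens) and 59.6 ± 3.20 CPM (VENins; SD, n = 5) and a log2 fold change of 0.16 ± 0.063 (SE) and an adjusted p of 0.244 in edgeR, and MRPL54 had 21.9 ± 2.55 (VENsens) and 24.4 ± 2.85 CPM (VENins; SD, n = 5) and a log2 fold change of 0.15 ± 0.091 (SE) and an adjusted p of 0.428. MRPL10, which anchors the stalk, had 91.7 ± 5.92 (VENsens) and 88.5 ± 6.91 CPM (VENins; SD, n = 5) and a log2 fold change of -0.051 ± 0.063 (SE) and an adjusted p of 0.745 in edgeR. MRPL53 had few counts, with 1.83 ± 0.199 (VENsens) and 1.84 ± 0.198 CPM (VENins; SD, n = 5). Its log2 fold change was 0.014 ± 0.16 (SE) with an adjusted p of 0.982 in edgeR, and 45.2% of its exon bases are shared with another gene.

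Some symbols do not match the place of the protein. MRPS30 and MRPS18A encode proteins of the large subunit. MRPS30 had 85.0, 88.1, 86.6, 86.6 and 87.6 CPM in VENsens lines 1 to 5 and 86.7, 84.5, 83.8, 90.8 and 83.8 CPM in VENins lines 1 to 5. The ranges overlapped fully and the test gave a log2 fold change of -0.015 ± 0.053 (SE) and an adjusted p of 0.925 in edgeR. MRPS18A, with values of 10.4, 10, 10.1, 10 and 9.45 CPM in VENsens lines 1 to 5 and 7.89, 10.7, 10.1, 9.78 and 11.6 CPM in VENins lines 1 to 5, varied more among VENins than among VENsens lines. VENins line 1 was lowest and VENins line 5 highest, on either side of the control range. This amounted to a log2 fold change of 0.00013 ± 0.10 (SE) and an adjusted p of 1.00 in edgeR, and 47% of its exon bases are shared with another gene. MRPS18C, a further homologue of the same bacterial protein, had 11.9 ± 1.18 (VENsens) and 12.3 ± 0.719 CPM (VENins; SD, n = 5) and a log2 fold change of 0.048 ± 0.079 (SE) and an adjusted p of 0.819 in edgeR.

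MRPL58 releases peptides from stalled ribosomes and is also built into the large subunit. It had 26.1, 21.8, 26.7, 23.9 and 26.3 CPM in VENsens lines 1 to 5 and 25.4, 26.6, 27.3, 28.4 and 27.4 CPM in VENins lines 1 to 5. Again VENsens line 2 was lowest, and the other control lines overlapped with VENins lines. The fit returned a log2 fold change of 0.12 ± 0.071 (SE) and an adjusted p of 0.444 in edgeR. MRPL44, a large-subunit protein with a domain for double-stranded RNA, had 54.9 ± 2.48 (VENsens) and 57.4 ± 1.92 CPM (VENins; SD, n = 5) and a log2 fold change of 0.064 ± 0.056 (SE) and an adjusted p of 0.617 in edgeR.

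The members that did not pass the filter were MRPL30, MRPS18B, MRPS21 and MRPS24. MRPL30 had 1, 1, 3, 0 and 1 counts in VENsens lines 1 to 5 and 2 counts in each VENins line. MRPS24 had between 3 and 14 counts per library, 80 in all. MRPS18B had 2 counts in all libraries together and MRPS21 had 0. Such levels are far below those of the other members, and pseudogenes named after MRPS21 held 79 counts and those of MRPS18B 13. MRPS24 shares 23.2% of its exon bases with a read-through transcript and MRPL30 shares 19.5% with other genes. Whether reads of these genes were lost in counting was not tested.

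When members were grouped by origin, the 29 tested large-subunit proteins with a bacterial homologue reached a median of 0.14 in log2 fold change, with 28 above 0 and 12 under an unadjusted p of 0.05. The 18 mitochondrion-specific proteins of the large subunit had a median of 0.12, with 16 above 0 and 6 under that p. In the small subunit the 13 homologues of bacterial proteins had a median of 0.072, with 12 above 0 and 4 under that p. Its 9 mitochondrion-specific proteins had a median of 0.079, with 9 above 0 and 2 under that p. MRPS18A and MRPS30, whose proteins are in the large subunit, were kept apart with a median of -0.0074, and MRPS28 and MRPS36 were put in no class. Of all tested genes 51.1% were above 0, and 7.79% were higher and 8.38% lower under that p. Differences between the classes were not tested.

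Levels between members were compared per kb of exons, since longer genes collect more reads. In VENsens lines the median over tested members was 15.2 CPM per kb, 17.7 for MRPL and 14.1 for MRPS genes, against 6.30 for tested protein-coding genes, 24.8 for nuclear subunits of complexes I to V and 150 for cytosolic ribosomal proteins. MRPS34, a small-subunit protein specific to mitochondria, was at the top with 137, 109, 135, 131 and 132 CPM per kb in VENsens lines 1 to 5. MRPL15, a homologue of a bacterial protein, followed with 127, 120, 135, 128 and 133 CPM per kb. These genes did not differ beyond their ranges, and both lay above all others. MRPS26 had 75.1 ± 6.06 and MRPL14, which holds an assembly factor until the subunit is complete, 64.3 ± 4.34 CPM per kb (SD, n = 5). At the bottom MRPL53 had 1.36 ± 0.148 and MRPL38 1.33 ± 0.163 CPM per kb, with ranges that overlapped. Low levels in the small subunit were those of MRPS18C with 2.45 ± 0.243 and MRPS17 with 3.27 ± 0.361 CPM per kb. Of the exon bases, 45.2% of MRPL53, 41.1% of MRPL38, 40.2% of MRPS18C and 27.0% of MRPS17 are shared with other genes. Whether reads there were lost in counting was not tested. Of 72 neighbouring pairs in the order, 68 had overlapping ranges in VENsens lines.

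**Figure D4:**
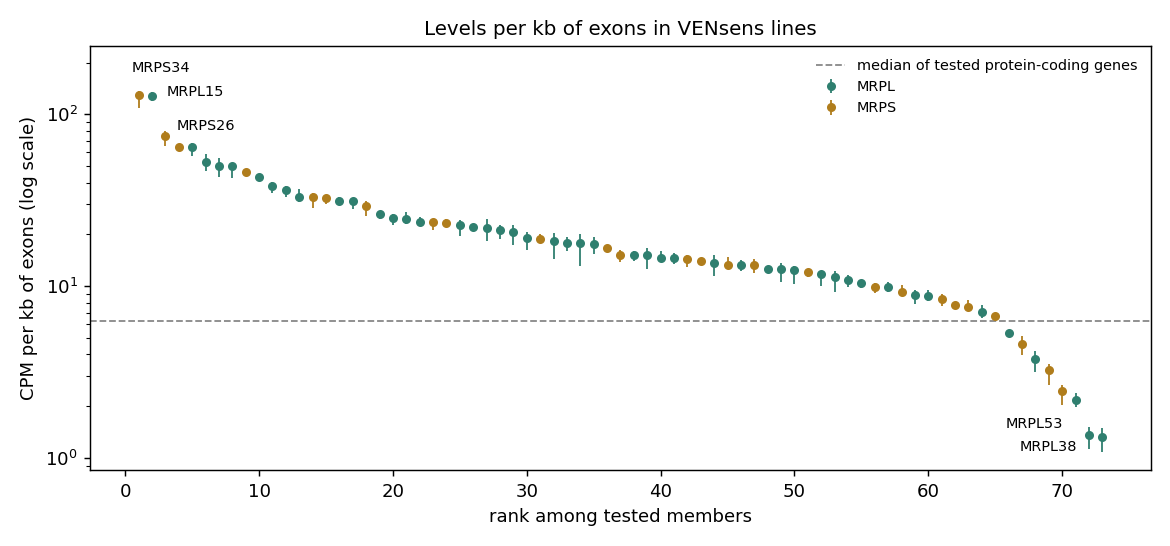
Mean CPM per kb of exons of the 73 tested members in VENsens lines (y axis, log scale) in order of rank (x axis), MRPL green and MRPS brown; bars span the lowest and highest of 5 lines and the dashed line is the median of tested protein-coding genes, 6.30. MRPS34 and MRPL15 stand above the rest at 129 CPM per kb each, and MRPL53 and MRPL38 are lowest.

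In VENins lines these levels were close to the control values. MRPS34 had 138 ± 12.1 and MRPL15 136 ± 6.29 CPM per kb (SD, n = 5). By CPM, MRPS34 gave a log2 fold change of 0.092 ± 0.065 (SE) and an adjusted p of 0.511 in edgeR, and MRPL15 gave a log2 fold change of 0.084 ± 0.055 (SE) and an adjusted p of 0.478. Neither difference exceeded the spread between lines by that test. MRPL14 had a log2 fold change of 0.10 ± 0.060 (SE) and an adjusted p of 0.436 in edgeR, and MRPL38 had a log2 fold change of 0.20 ± 0.12 (SE) and an adjusted p of 0.440.

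Further proteins of the particle carry other symbols, namely DAP3, PTCD3, AURKAIP1 and CHCHD1 of the small and GADD45GIP1 of the large subunit. For these 5 genes the median was 0.17 on the log2 scale, and 3 had an unadjusted p under 0.05, each with the higher level in VENins lines, beside 7.79% of all tested genes. Their mean level was -0.22 in VENsens line 2 and between -0.054 and 0.016 in the other VENsens lines. Between same-numbered lines the median log2 difference was -0.061, 0.43, -0.0047, 0.081 and 0.058 for lines 1 to 5. CHCHD1 had 35.4, 32.7, 37.3, 35.5 and 36.5 CPM in VENsens lines 1 to 5 and 37.7, 45.3, 43.0, 41.8 and 38.0 CPM in VENins lines 1 to 5. The lowest VENins line, line 1, lay above the highest VENsens line, line 3. It had a log2 fold change of 0.21 ± 0.069 (SE) and an adjusted p of 0.161 in edgeR, AURKAIP1 had a log2 fold change of 0.19 ± 0.081 (SE) and an adjusted p of 0.259, and GADD45GIP1 had a log2 fold change of 0.17 ± 0.075 (SE) and an adjusted p of 0.285. The GTP-binding protein DAP3 had 80.5 ± 5.01 (VENsens) and 81.1 ± 3.28 CPM (VENins; SD, n = 5) and a log2 fold change of 0.013 ± 0.059 (SE) and an adjusted p of 0.943 in edgeR, and PTCD3, a pentatricopeptide protein, had 128 ± 3.16 (VENsens) and 128 ± 3.53 CPM (VENins; SD, n = 5).

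Genes that build or serve the mitoribosome are set beside all tested genes, of which 51.1% were above 0, with 7.79% higher and 8.38% lower under an unadjusted p of 0.05. Of 23 genes for its assembly and for modification of its RNA, 13 were above 0, the median was 0.020, 3 had an unadjusted p under 0.05 and 0 were called. The smallest p among them belonged to MTERF3, needed for assembly of the large subunit, with a log2 fold change of 0.19 ± 0.058 (SE) and an adjusted p of 0.139 in edgeR. MPV17L2, another assembly factor of low level, had 5.30 ± 0.751 (VENsens) and 6.42 ± 0.612 CPM (VENins; SD, n = 5) and a log2 fold change of 0.28 ± 0.12 (SE) and an adjusted p of 0.262 in edgeR. Of 14 translation factors 10 were above 0 with a median of 0.027, 1 had an unadjusted p under 0.05 and 0 were called. C12orf65, a rescue factor for stalled ribosomes, had a log2 fold change of 0.12 ± 0.054 (SE) and an adjusted p of 0.280 in edgeR, and the release factor MTRF1 had a log2 fold change of 0.15 ± 0.073 (SE) and an adjusted p of 0.333.

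Among 7 genes of mitochondrial transcription and mRNA stability 5 were above 0, the median was 0.044, 1 had an unadjusted p under 0.05, beside 7.79% of all tested genes higher and 8.38% lower, and 0 were called. TEFM, an elongation factor of mitochondrial transcription, had 21.8 ± 1.43 (VENsens) and 24.8 ± 2.06 CPM (VENins; SD, n = 5) and a log2 fold change of 0.18 ± 0.074 (SE) and an adjusted p of 0.241 in edgeR. LRPPRC, which stabilises mitochondrial mRNAs, had 294, 304, 294, 295 and 295 CPM in VENsens lines 1 to 5 and 273, 261, 289, 299 and 252 CPM in VENins lines 1 to 5. VENsens line 2 stood above the other, closely grouped VENsens lines, VENins line 4 lay between it and them, and the other VENins lines lay below all VENsens lines. The fit gave a log2 fold change of -0.11 ± 0.054 (SE) and an adjusted p of 0.330 in edgeR.

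Other parts of the translation and respiratory machinery gave the following values. Of 80 tested cytosolic ribosomal protein genes 72 were above 0, with a median log2 fold change of 0.078 and 15 under an unadjusted p of 0.05, where 7.79% of all tested genes were higher and 8.38% lower. Of 81 tested nuclear subunits of complexes I to V, of which all but complex II also contain products of the mitoribosome, 72 were above 0, with a median of 0.14 and 44 under that p. The mean level of these subunits was -0.19 in VENsens line 2 and between -0.080 and 0.017 in the other VENsens lines. Their median log2 difference between same-numbered lines was 0.087, 0.36, 0.039, 0.13 and 0.090 for lines 1 to 5. For cytosolic ribosomal proteins it was -0.072, 0.19, 0.062, 0.098 and 0.096. Neither list had a called gene in edgeR.

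The members are spread over 21 chromosomes, with at most 8 on any of them. Many start next to a gene on the opposite strand. In GENCODE 29, 27 of 73 tested members or 37% have a protein-coding gene on the other strand that starts within 1000 bases, against 17.8% of tested protein-coding genes. In 1 case both genes are members, MRPL46 and MRPS11, whose starts are 34 bases apart. Other partners belong to the respiratory chain, since MRPL36 starts 34 bases from NDUFS6 and MRPL47 starts 36 bases from NDUFB5, both encoding subunits of complex I. MRPL36 had a log2 fold change of 0.25 and NDUFS6 also 0.25, while MRPL47 had 0.21 and NDUFB5 0.13. These were the partners with an unadjusted p under 0.05, 2 of 26 tested, beside 7.79% of all tested genes higher and 8.38% lower. In the 23 pairs of a member with a gene that is no member, both tested, the median log2 fold change was 0.12 for the members and 0.017 for the partners. For the 46 members without a partner it was 0.12.

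Promoter windows from RefSeq (GRCh38.p14, from 250 bases before to 50 bases after the start) were found for 64 of the 73 tested members, and MRPL2, MRPL10, MRPL13, MRPL15, MRPL21, MRPL23, MRPL35, MRPS28 and MRPS36 had none. They were searched by exact letters on both strands for motifs of transcription factors that bind near the start of many nuclear genes. The ETS motif CCGGAAG was in 27 of 64 windows, or 42.2%, against 19.8% of windows of tested protein-coding genes and 10.7% of all 27305 windows. The YY1 motif AAGATGGC was in 17, or 26.6%, against 5.56% and 3.03%. The NRF1 motif CGCATGCG was in 3, or 4.69%, against 4.11% and 2.19%. The SP motif GGGCGG was in 40, or 62.5%, against 69.7% and 44.6%, and the E-box CACGTG in 5, or 7.81%, against 10.1% and 7.43%. Members with the ETS motif had a median of 0.14 in log2 fold change and those without it 0.11, and for the YY1 motif the medians were 0.11 and 0.12. With and without the motif they were 0.14 and 0.11 for NRF1, 0.12 and 0.088 for SP and 0.048 and 0.12 for the E-box.

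Stretches without annotated exons, upstream of both the RefSeq and the GENCODE start, are shown as examples for the 3 MRPL and the 3 MRPS genes with the smallest p that have at least 80 such bases and a RefSeq start near that of GENCODE. Each covers only a part of the searched window, so counted motifs that lie elsewhere in it are not printed, such as the SP motif of MRPL39, the YY1 motif and E-box of MRPL22 and the ETS motif of MRPS26. Capitals mark the motifs, and each stretch is printed 5′ to 3′ on the strand of the gene in GRCh38.p14. The large-subunit stretches are from MRPL39 (chr21:25607518-25607667, minus strand), MRPL17 (chr11:6683402-6683551, minus strand) and MRPL22 (chr5:154940920-154941069, plus strand). The small-subunit stretches are from MRPS26 (chr20:3045802-3045944, plus strand), MRPS14 (chr1:175023426-175023575, minus strand) and MRPS15 (chr1:36464438-36464587, minus strand).
MRPL39: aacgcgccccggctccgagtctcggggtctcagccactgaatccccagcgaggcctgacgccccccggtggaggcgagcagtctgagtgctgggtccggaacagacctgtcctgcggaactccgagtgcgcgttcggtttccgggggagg
MRPL17: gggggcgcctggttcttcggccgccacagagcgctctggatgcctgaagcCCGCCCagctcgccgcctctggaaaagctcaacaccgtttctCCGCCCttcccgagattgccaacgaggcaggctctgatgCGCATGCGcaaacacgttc
MRPL22: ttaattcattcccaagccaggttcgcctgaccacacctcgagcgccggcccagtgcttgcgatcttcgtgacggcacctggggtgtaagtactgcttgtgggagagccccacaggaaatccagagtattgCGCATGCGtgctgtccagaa
MRPS26: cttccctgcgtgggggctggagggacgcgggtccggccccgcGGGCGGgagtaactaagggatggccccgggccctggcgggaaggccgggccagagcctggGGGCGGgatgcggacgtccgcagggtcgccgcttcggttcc
MRPS14: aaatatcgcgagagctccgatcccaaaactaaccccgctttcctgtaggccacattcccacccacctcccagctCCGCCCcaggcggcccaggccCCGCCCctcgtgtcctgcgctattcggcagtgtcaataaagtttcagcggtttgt
MRPS15: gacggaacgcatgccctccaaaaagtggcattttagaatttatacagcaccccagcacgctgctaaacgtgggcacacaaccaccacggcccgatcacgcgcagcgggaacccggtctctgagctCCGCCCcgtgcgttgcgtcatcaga
In the printed letters the NRF1 motif appears in MRPL17 and MRPL22, and the SP motif 2 times each in MRPL17, MRPS26 and MRPS14 and 1 time in MRPS15. A match describes the letters of the window and was not tested as a binding site.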

How the data were processed

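The authors sequenced 1 library per line from a kit that does not mark strand and deposited, per library, whole-number read counts for each Ensembl gene identifier, without normalization. The submitters' processing notes name Bowtie2 2.3.5.1, SAMtools 1.9, HTSeq 0.9.1 and the hg19 build, with no roles. Each file also holds summary lines for reads on no gene, which were left out of library sizes; between 52.7 and 54.2% of reads were on genes, and between 24.6 and 26.2% were set aside for low alignment quality. Names, lengths and neighbours came from GENCODE 29 (GRCh38) by gene ID, which named 52526 of 63677 identifiers. MRPL45 was not analysed here, since its GENCODE 29 identifier was not among them. Without strand, reads of a member and of an overlapping antisense gene cannot be told apart.

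Counts were fitted in R 4.3.3 with edgeR 4.0.16 (filterByExpr with a minimum count of 10, TMM, quasi-likelihood F test on line number and condition) and p-values were adjusted by Benjamini-Hochberg over 16756 genes with a threshold of 0.05. Standard errors come from the F statistic, and log2 CPM used a prior count of 2. DESeq2 1.42.0 and further settings were alternatives. Python 3.11.15, pandas 2.3.3 and matplotlib 3.10.9 made tables and plots. The fit was also tested on simulated data. No 2 libraries of a group agreed within counting noise, their chi-square being 1.92 to 14.2 times its degrees of freedom.

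A result for 1 of the planned cell type markers is not reported. The members and lists were chosen with earlier results of these data known. Named members are those with an adjusted p under 0.05, the 5 of each subunit with the smallest p, members with a log2 fold change below -0.1 and the 2 lowest of each subunit, the 2 highest and 2 lowest of each subunit by CPM per kb, those of each subunit with the largest SD of log2 CPM in either group (from 1 CPM on), stalk genes, MRPS18 genes, MRPS30, MRPS36, MRPL44, MRPL58 and members not tested. Other genes are the 5 with other symbols and the 2 with the smallest p in each list of assembly, translation and transcription. Members printed as not overlapping, in other fits, as head-to-head neighbours or with a promoter stretch were named after their values were seen.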

Additional observations from a re-analysis of the deposited data

Results flagged for a closer look

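In groups of 5 lines, a line was marked where its gap to the nearest line exceeded the 95% value of Dixon's test, as a share of the group's range. This held in 11 of 78 groups. Chance marks about 1 in 20 of independent groups, but these groups share libraries and include genes named for a large SD. That rate therefore cannot be set against the count. VENins line 5 was far above the other VENins lines in MRPL34 with 67.4 CPM, MRPL49 with 71.5 CPM, MRPL12 with 25 CPM and MRPS34 with 174 CPM, and far below them in MRPS14 with 31.8 CPM. VENsens line 2 was far below the other VENsens lines in MRPS34 with 120 CPM, GADD45GIP1 with 52.6 CPM and the summed level of MRPS genes with 1545 CPM, and far above them in LRPPRC with 304 CPM. VENins line 4 was low in MRPS18C with 11.0 CPM, and VENins line 1 was low in the summed level of MRPS genes with 1679 CPM.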

How the results depend on the processing

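All 10 lines come from 1 cell line, and differences of this size rest on few lines. The line number was kept as a replicate block because the study describes a paired analysis. Same-numbered lines correlated between -0.10 and 0.028 in their deviations from group means, and no line correlated best with its own number, so they may share only a number. With the block edgeR called 33 genes and 0 members, and with no replicate block 149 genes and 1 member. DESeq2 called 217 genes and 1 member with the block, and 739 and 9 without it. Without a filter on low counts 664 genes and 3 members were called. With length and GC trends taken out and the block kept, 142 genes and 1 member were called, and without the block, added after seeing the data, 365 and 1. Leaving out lines, in same-numbered pairs or singly without the block (the latter added after seeing the data), gave between 6 and 783 called genes, 0 to 3 called members and 8 to 35 members with an unadjusted p under 0.05. In the fit with 8 such members 3.98% of all tested genes were higher and 4.44% lower at that p. In the fit with 35 it was 10.2% and 10.4%. By pair the called genes were 57, 6, 17, 331 and 9 without lines 1 to 5. Median log2 fold changes stayed above 0 in all 25 other fits, between 0.098 and 0.16 for MRPL and between 0.049 and 0.098 for MRPS genes. Of 923 values for 37 named genes, 38 changed sign, in 8 genes that were within 0.073 of 0; the cause was not tested.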
